A study of Mus musculus with 6 samples.

Results

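A set of 9 genes that make long RNAs without a protein product was followed through RNA sequencing of mouse macrophage-like cells with and without a knockout of Apobec1. The genes were chosen by name from the 24848 rows of the deposited expression table. They are Gas5, Snhg1, Snhg3, Snhg8 and Snhg12, which are host genes of small nucleolar RNAs (snoRNAs), and the long non-coding RNAs (lncRNAs) Malat1, Neat1, Pvt1 and Kcnq1ot1. The cells were RAW 264.7 (ATCC TIB-71), a line derived from a mouse tumour and widely used as a macrophage model. The 3 wild-type (WT) and 3 APOBEC1 knockout (KO) libraries each came from RNA of a separate plate, and both genotypes were grown in the same medium with no added stimulus named in the labels. Neither the method of the knockout nor the number of KO clones is given in the labels. An effect of the genotype and any other difference between the lines therefore cannot be told apart, and the spread behind each p-value is that of plates. APOBEC1 is an enzyme that turns C into U in RNA. The table holds gene levels and no editing calls, so the comparison made here is that of RNA levels.

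Levels are in CPM, the reads of a gene scaled to a common library total, given as mean ± SD (n = 3 libraries per group). Each log2 fold change compares KO with WT on log2(CPM + 0.5), is given ± SE, and understates the change of genes with few reads. A gene was called when limma's p after Benjamini-Hochberg adjustment over all 10614 tested genes was under 0.05. Between 50493447 and 70411383 reads per library were assigned to genes. Across genes, which are not independent replicates, log2 levels correlated at 0.988 to 0.996 among WT libraries, at 0.996 to 0.998 among KO libraries and at 0.969 to 0.978 across the groups. The 8 macrophage markers summed to 3598 to 3744 CPM in WT and 3910 to 4339 CPM in KO. The 14 markers of other cell types summed to 0.394 to 0.579 CPM in WT and 0.390 to 0.452 CPM in KO, and 8 of the 14 were listed at 0 in every library. The RNA of Apobec1 itself was measured at 373, 431 and 396 CPM in the WT libraries and at 339, 340 and 361 CPM in the KO libraries, and this level does not check the labels. In RNA from whole plates, fewer cells that make a transcript and less of that transcript per cell cannot be told apart.

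A snoRNA host gene is transcribed and spliced like a messenger RNA, and the snoRNAs are trimmed from its excised introns and go on to guide modification of ribosomal RNA. The spliced exons of the Gas5 and Snhg transcripts carry no long conserved reading frame, are exported, and are classic substrates of nonsense-mediated decay, the translation-coupled pathway that removes transcripts with early stop codons. Malat1 and Neat1 stay in the nucleus: Malat1 collects in nuclear speckles, which store splicing factors, and the long form of Neat1 is the scaffold of paraspeckles, bodies built with the proteins SFPQ and NONO. Pvt1 lies next to the Myc oncogene, and Kcnq1ot1 is an antisense transcript that silences neighbouring genes on the paternal chromosome.

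The snoRNAs are what sets the host genes apart, so examples from each of the 5 hosts are shown here, 5′ to 3′, from the GENCODE M21 transcripts of the mouse build GRCm38 (mm10). Capitals mark box C (TGATGA within the first 20 bases) with box D (CTGA within the last 20), or the ACA that stands 3 bases before the end. Boxes C and D define the class that guides ribose methylation, and ACA the class that guides pseudouridylation. Snord80 and Snord47 lie in introns of Gas5, Gm22680 lies inside Snhg1, Snora73a inside Snhg3, Snora24 in the intron of Snhg8, and Snora61 and Snord99 inside Snhg12. Their positions are Snord80 at chr1:161037601-161037681 (plus strand), Snord47 at chr1:161038082-161038158 (plus strand), Gm22680 at chr19:8725341-8725409 (plus strand), Snora73a at chr4:132352775-132352979 (minus strand), Snora24 at chr3:123507937-123508066 (minus strand), Snora61 at chr4:132310240-132310369 (plus strand) and Snord99 at chr4:132310691-132310764 (plus strand).
Snord80: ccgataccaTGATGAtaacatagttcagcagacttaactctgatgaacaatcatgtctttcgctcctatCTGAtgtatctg
Snord47: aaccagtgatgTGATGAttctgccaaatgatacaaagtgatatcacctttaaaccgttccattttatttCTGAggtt
Gm22680: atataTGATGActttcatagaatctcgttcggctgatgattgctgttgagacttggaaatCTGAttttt
Snora73a: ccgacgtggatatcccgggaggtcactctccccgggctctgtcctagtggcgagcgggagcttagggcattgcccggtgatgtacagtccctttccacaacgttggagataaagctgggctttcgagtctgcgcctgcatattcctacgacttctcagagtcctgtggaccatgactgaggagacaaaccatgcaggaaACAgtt
Snora24: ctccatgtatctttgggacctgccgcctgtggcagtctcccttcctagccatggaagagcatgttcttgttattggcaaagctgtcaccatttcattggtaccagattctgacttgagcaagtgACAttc
Snora61: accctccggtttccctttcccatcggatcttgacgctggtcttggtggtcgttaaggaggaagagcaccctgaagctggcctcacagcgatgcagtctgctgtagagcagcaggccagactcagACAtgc
Snord99: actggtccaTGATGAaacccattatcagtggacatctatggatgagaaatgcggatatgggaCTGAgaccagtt

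The annotation placed 26 snoRNA entries at 24 positions inside these host genes. Gas5 held 10 entries at 9 positions, Snhg1 held 8, Snhg12 held 5 at 4 positions, Snhg3 held 2 and Snhg8 held 1, while none lay in Malat1, Neat1, Pvt1 or Kcnq1ot1. Both boxes C and D were found in 14 of the 26 entries and in 20.5% of the 1507 snoRNAs of the annotation. The ACA triplet was found at its place in 7 of the 26 and in 18.3% of all. These letters were searched on the RNA strand only, and a match is a description of the sequence. Of the nested snoRNAs, 7 symbols had rows in the table and all were listed at 0 in every library, so the values that follow describe the host transcripts and not the snoRNAs. The libraries were made from poly(A) RNA, and snoRNAs carry no poly(A) tail.

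Transcripts of many translation-linked host genes begin with a run of C and T bases, a start that ties a messenger RNA to growth signalling. The next windows show the RNA strand of GRCm38.p6 from 30 bases before to 30 after a RefSeq start, with the longest run of C and T within 20 bases of the start in capitals. For Gas5 the downstream of its annotated starts is shown, and Malat1 is given as a gene without snoRNAs. The windows lie for Gas5 at chr1:161035136-161035196 (plus strand), Snhg1 at chr19:8723457-8723517 (plus strand), Snhg3 at chr4:132353656-132353716 (minus strand), Snhg8 at chr3:123508306-123508366 (minus strand), Snhg12 at chr4:132308648-132308708 (plus strand) and Malat1 at chr19:5802642-5802702 (minus strand).
Gas5: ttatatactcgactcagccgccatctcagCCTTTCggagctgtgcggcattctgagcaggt
Snhg1: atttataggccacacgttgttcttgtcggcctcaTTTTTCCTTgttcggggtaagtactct
Snhg3: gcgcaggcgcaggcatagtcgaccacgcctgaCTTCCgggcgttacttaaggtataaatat
Snhg8: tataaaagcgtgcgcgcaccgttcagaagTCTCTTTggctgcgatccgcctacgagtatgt
Snhg12: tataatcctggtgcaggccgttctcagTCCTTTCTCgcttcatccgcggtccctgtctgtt
Malat1: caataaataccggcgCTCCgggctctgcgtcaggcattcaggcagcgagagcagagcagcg

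The run was 6 bases long in Gas5, 9 in Snhg1, 5 in Snhg3, 7 in Snhg8, 9 in Snhg12 and 4 in Malat1. At the other annotated start of Gas5 it was 3 bases long. The run began 4 bases past the start in Snhg1 and 2 bases past it in Snhg3. Of the windows shown, only that of Snhg12 held a C followed by at least 6 bases of C or T, as did 19.2% of promoters. Among 32851 promoters of the RefSeq table, 24.8% held a run of at least 7 in the same window and 58.4% a run of at least 5. Neat1 and Pvt1 were not matched in that table. Snhg1 and Snhg12 shared the longest run. Whether the runs and the fold changes described next are linked was not tested.

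Of the 9 genes, 8 passed the filter of at least 1 CPM in at least 3 libraries, and Kcnq1ot1 did not. Gas5, Snhg3, Snhg8, Snhg12, Malat1 and Neat1 fell in KO, which is 6 of 8 where 16.9% of all tested genes were called lower. None rose, where 13.5% of tested genes were called higher, and limma found none higher at an unadjusted p under 0.05 either. For the same 6 genes every KO library lay below every WT library, as it did for 25.4% of tested genes. An exact two-sided permutation test over libraries gave each of these 6 genes p = 0.1, the smallest that 3 against 3 libraries allow, and gave 0.4 for Snhg1 and 0.3 for Pvt1. The edgeR quasi-likelihood test called 6 of the 8 lower (16.2% of tested genes) and none higher, and DESeq2 called 6 lower (17.8% of tested genes) and none higher. The median log2 fold change over the 8 was -0.75, beside -0.02 over all tested genes. Over all genes 1436 were called higher and 1794 lower, so that 44.5% of calls were higher, a split that moved to 58.1% once a trend with length and GC content was taken out of each library. That correction left 6 of the 8 genes called, all lower, where 20.3% of tested genes were then called lower. Leaving out KO replicate 1 left 3 of the 8 genes called (9.52% of tested genes were then lower), leaving out KO replicate 2 left 3 (11.4%), and leaving out both libraries numbered 2 left 4, where 12.2% of tested genes were then called lower.

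**Figure D1:**
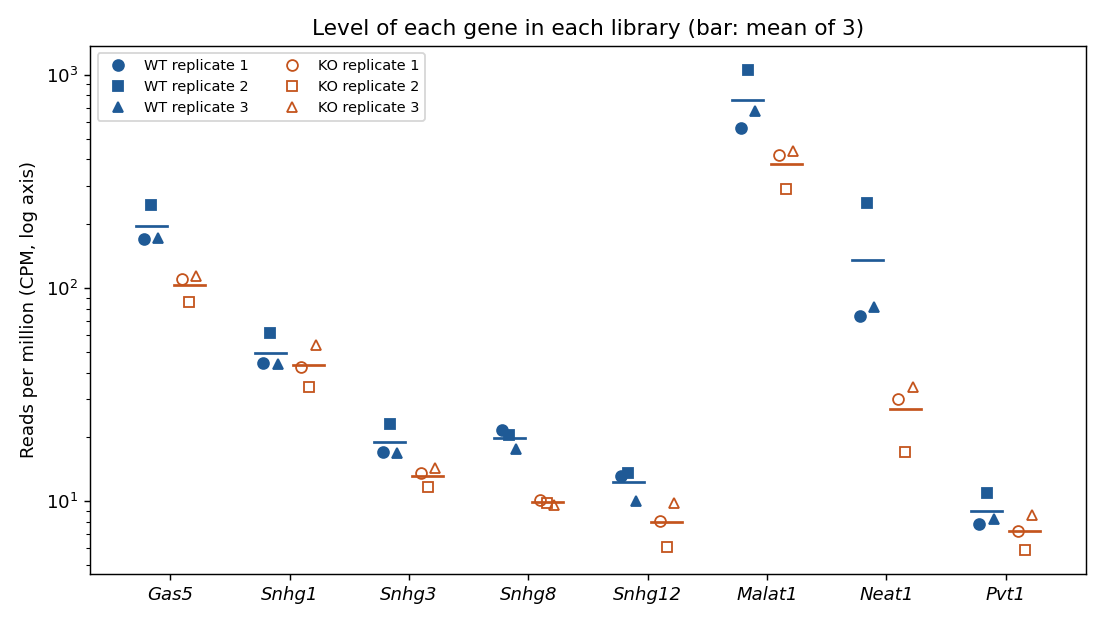
Level of 8 genes in each of the 6 libraries, in CPM on a log axis. Filled blue symbols are WT libraries, open orange symbols KO libraries, the symbol shape gives the replicate number, and the bar is the mean of 3. The KO symbols lie below the WT symbols for 6 of the 8 genes and overlap them for Snhg1 and Pvt1. Neat1 ranges from 17.05 to 250.1 CPM.

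Gas5 (growth arrest specific 5, chr1:161034422-161038539, plus strand) is named for its rise in growth-arrested cells and is a snoRNA host. It was at 170, 244 and 172 CPM in WT replicates 1, 2 and 3 and at 110, 85.4 and 114 CPM in KO. The groups did not overlap, WT replicate 2 was the highest library and KO replicate 2 the lowest. The mean fell from 195 ± 42.3 to 103 ± 15.3 CPM, which is 1.89-fold lower (log2 fold change -0.91 ± 0.16, limma adjusted p = 0.00440). Gas5 was called under each of the 19 alternative settings, and it was 1.53-fold lower without the libraries numbered 2. Its span overlaps the start of Zbtb37, a zinc finger gene on the other strand that shares no exon bases with it. Zbtb37 had 13.4 ± 4.94 CPM in WT and 11.4 ± 1.73 in KO and was not called.

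Snhg8 (chr3:123507552-123508404, minus strand), the host of Snora24, had the tightest values of the set. Its levels were 21.6, 20.4 and 17.5 CPM in WT and 10.1, 9.80 and 9.63 CPM in KO. Every KO library was far below the lowest WT library, and the KO libraries lay within a narrow range. The mean fell from 19.9 ± 2.13 to 9.86 ± 0.258 CPM, 2.01-fold lower, with a log2 fold change of -0.97 ± 0.09 and a limma adjusted p of 0.000239. It was called under all 19 alternatives, where the log2 fold change ran from -1.06 to -0.87.

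Snhg3 and Snhg12 are neighbours on chromosome 4, with 37.0 kb between them. Snhg3 (chr4:132348014-132353686, minus strand) carries the Snora73 pair, RNAs also known as U17 that act in ribosomal RNA cleavage. Its levels were 16.9, 23.0 and 16.8 CPM in WT and 13.5, 11.7 and 14.3 CPM in KO. The highest KO library lay below the lowest WT library, and the mean fell from 18.9 ± 3.56 to 13.2 ± 1.33 CPM (1.44-fold lower, log2 fold change -0.50 ± 0.14, limma adjusted p = 0.0283). Snhg3 was called under 15 of 19 alternatives. The call ended without KO replicate 1 (limma adjusted p = 0.0825), without KO replicate 2 (0.102) and without both libraries numbered 2 (0.116), and the range over its alternatives was 0.00165 to 0.116. Rcc1, the guanine exchange factor of Ran, overlaps Snhg3 on the same strand, and Gm17300 overlaps it on the other strand. Together they cover 83.3% of the exon bases of Snhg3, and the share of each was not computed. Reads of this stretch cannot be assigned to one gene with certainty. Rcc1 had 119 ± 10.9 CPM in WT and 125 ± 4.19 in KO and was not called.

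Snhg12 (chr4:132308623-132311024, plus strand) hosts Snora16a, Snora44, Snora61 and Snord99. It was at 13.1, 13.5 and 10.1 CPM in WT and at 8.11, 6.09 and 9.83 CPM in KO. The groups were separated only by the small gap between WT replicate 3 and KO replicate 3. The mean fell from 12.2 ± 1.90 to 8.01 ± 1.87 CPM (1.53-fold lower, log2 fold change -0.60 ± 0.18, limma adjusted p = 0.0382). This was the call that rested most on single libraries, with 11 of 19 alternatives past the threshold. It ended without WT replicate 1 (limma adjusted p = 0.0704), WT replicate 2 (0.0583), KO replicate 1 (0.103), KO replicate 2 (0.108) or both libraries numbered 2 (0.113), and also with no filter on low values (0.0667) or quantile normalization (0.0534), in a range over its alternatives of 0.00500 to 0.113.

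Snhg1 (chr19:8723475-8726443, plus strand), which hosts 8 of the nested snoRNAs, did not pass the test. Its levels were 44.2, 61.1 and 43.8 CPM in WT and 42.7, 34.4 and 53.8 CPM in KO. The groups overlapped, with KO replicate 3 above WT replicates 1 and 3. The means were 49.7 ± 9.88 CPM in WT and 43.6 ± 9.74 CPM in KO, with a log2 fold change of -0.19 ± 0.18, a 95% interval of -0.61 to 0.23 and a limma adjusted p of 0.465. Snhg1 was called under none of the 19 alternatives, and its estimate was 0.12 without both libraries numbered 2.

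Ratios of chosen pairs of host transcripts were also read within each library. The ratio of Gas5 to Snhg1 in CPM was 3.84, 3.99 and 3.92 in WT and 2.57, 2.48 and 2.11 in KO. These ratios were nearly constant within WT, replicate 2 included (SD 0.0764), and varied more within KO (SD 0.242), where replicate 3 was lowest. They did not overlap between the groups. The ratio of Snhg8 to Snhg3 was 1.28, 0.887 and 1.04 in WT and 0.750, 0.840 and 0.676 in KO, again without overlap. An exact two-sided permutation test gave p = 0.1 for each of 3 ratios tested (0.1 after adjustment over the 3), the smallest possible here. The ratios were not planned comparisons. In each pair the first gene had the lower fold change, so the ratios restate the fold changes given above and are a description.

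Malat1 (chr19:5795690-5802672, minus strand), the nuclear speckle RNA, was the most abundant of the genes by CPM and took 61.8% to 65.9% of their reads in every library. It was at 563, 1051 and 674 CPM in WT and at 419, 289 and 439 CPM in KO. WT replicate 2 was far above the other WT libraries, KO replicate 2 was the lowest of all, and the groups did not overlap. The mean fell from 763 ± 255 to 382 ± 81.2 CPM (1.99-fold lower, log2 fold change -0.97 ± 0.24, limma adjusted p = 0.0184). The call ended without KO replicate 1 (limma adjusted p = 0.0506) and without KO replicate 2 (0.0623), with a range over its 19 alternatives of 0.00118 to 0.0623. Without both libraries numbered 2 Malat1 was called, at 1.44-fold lower.

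Neat1 (chr19:5824708-5845478, minus strand), the paraspeckle scaffold, lies 22.04 kb from Malat1 and had the lowest fold change of the set. Its levels were 74.1, 250.1 and 81.7 CPM in WT and 30.1, 17.05 and 34.4 CPM in KO. WT replicate 2 held 3.21 times the mean of the other WT libraries, and KO replicate 2 held 0.529 times the mean of the other KO libraries. Even so, the lowest WT library was above the highest KO library. The mean fell from 135 ± 99.5 to 27.2 ± 9.02 CPM (4.98-fold lower, log2 fold change -2.12 ± 0.46, limma adjusted p = 0.0103), and 0.546% of tested genes had a fold change as low or lower. Neat1 was called under all 19 alternatives. Without WT replicate 2 the log2 fold change was -1.56, and without both libraries numbered 2 Neat1 was 2.42-fold lower with a log2 fold change of -1.26.

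The balance of the pair of nuclear RNAs was compared within each library, as far as poly(A) libraries capture them. The Neat1 to Malat1 ratio in CPM was 0.132, 0.238 and 0.121 in WT and 0.0718, 0.0589 and 0.0782 in KO. The highest KO ratio lay below the lowest WT ratio, and the exact permutation test gave p = 0.1, as for the other ratios. The deposited table gives 1 value per gene, so the short polyadenylated form of Neat1 and the long form that builds paraspeckles cannot be told apart.

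Pvt1 (chr15:62037986-62378096, plus strand) did not pass the test. It was at 7.80, 11.0 and 8.29 CPM in WT and at 7.27, 5.92 and 8.63 CPM in KO. KO replicate 3 lay above WT replicates 1 and 3, so the groups overlapped. The means were 9.02 ± 1.70 and 7.27 ± 1.35 CPM, with a log2 fold change of -0.29 ± 0.16, a 95% interval of -0.67 to 0.09 and a limma adjusted p of 0.217. Pvt1 was called under none of the 19 alternatives. Myc, 47.6 kb away, was listed at 0.0594, 0.208 and 0.188 CPM in WT and 0.355, 0.402 and 0.285 CPM in KO, and was not tested. B2m, which macrophages express, was listed at 0, so a low listing does not show that Myc is low in the cells.

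Kcnq1ot1 (chr7:143203458-143296549, minus strand) was listed at 0 in all 6 libraries. The genes B2m, Dazap1 and Rbm14 were listed at 0 as well, and macrophages express B2m, so the listing does not show that Kcnq1ot1 is silent. Kcnq1ot1 lies inside the span of Kcnq1 on the opposite strand and shares 0.130% of its exon bases with it. Kcnq1 reached at most 0.104 CPM. Among 12 other genes of this imprinted domain 4 were tested. Dhcr7, an enzyme of cholesterol synthesis, was the 1 called, lower in KO at 73.5 ± 5.87 against 103 ± 7.91 CPM (log2 fold change -0.48 ± 0.08, limma adjusted p = 0.00398), and the median over the 4 was -0.06.

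**Figure D2:**
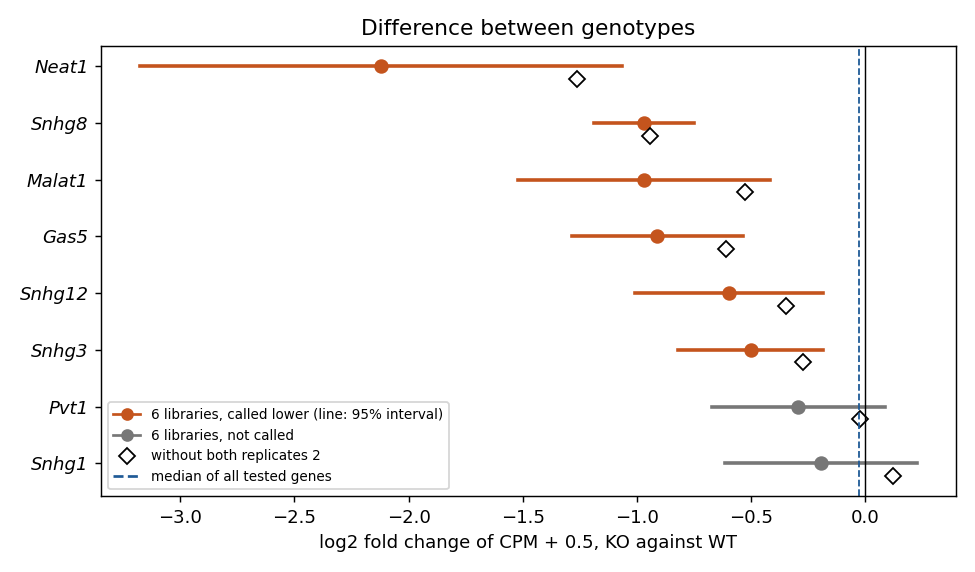
Log2 fold change of CPM + 0.5, KO against WT, for the 8 tested genes. Circles are estimates from 6 libraries with 95% intervals as lines (orange when called lower, grey when not called), open diamonds are estimates without both libraries numbered 2, and the dashed line is the median of all tested genes. Neat1 moves from -2.12 to -1.26 without those libraries, whereas Snhg8 stays at -0.97 and -0.94.

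The libraries numbered 2 stood apart for these genes. Of the 8 genes, 7 had their highest WT value in WT replicate 2 and 7 had their lowest KO value in KO replicate 2, with Snhg8 the exception in both groups. Against the mean of the other WT libraries, WT replicate 2 held 1.70 times as much Malat1, 1.43 times as much Gas5, 1.39 times as much Snhg1, 1.37 times as much Snhg3, 1.36 times as much Pvt1, 1.17 times as much Snhg12 and 1.05 times as much Snhg8. KO replicate 2 held between 0.675 times (Malat1) and 0.992 times (Snhg8) of the other KO libraries for the same 7 genes. The 9 genes together took 0.0911%, 0.167% and 0.102% of reads in WT and 0.0640%, 0.0460% and 0.0683% in KO.

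The share of ribosomal RNA precursor was lowest in the same libraries, but not in these alone. Rn45s, which has no poly(A) tail and enters such libraries as carry-over, took 2.75%, 0.381% and 2.43% of reads in WT and 1.40%, 0.542% and 0.635% in KO. KO replicate 3 was nearly as low as KO replicate 2. Rn45s was lowest in replicate 2 of each group, as were Rmrp, Rpph1 and Hist1h1b, the other 3 tested RNAs of a list of 16 without a poly(A) tail. Of those 4, limma called none in either direction, also at an unadjusted p under 0.05, and neither did edgeR or DESeq2. Rn45s was called lower in KO without WT replicate 2 (log2 fold change -1.72, limma adjusted p = 0.00357) and without both libraries numbered 2 (-1.46, 0.00118), and its adjusted p ran from 0.00118 to 0.772 over its alternatives. In WT the library with the low Rn45s share held the most Neat1 and Malat1. In KO the 2 libraries with a low share held the least (replicate 2) and the most (replicate 3) of both. Rescaling each library without Rn45s left 6 of the 8 genes called, with Neat1 at -2.13 and Malat1 at -0.98. Whatever else set the libraries numbered 2 apart was not tested.

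**Figure D3:**
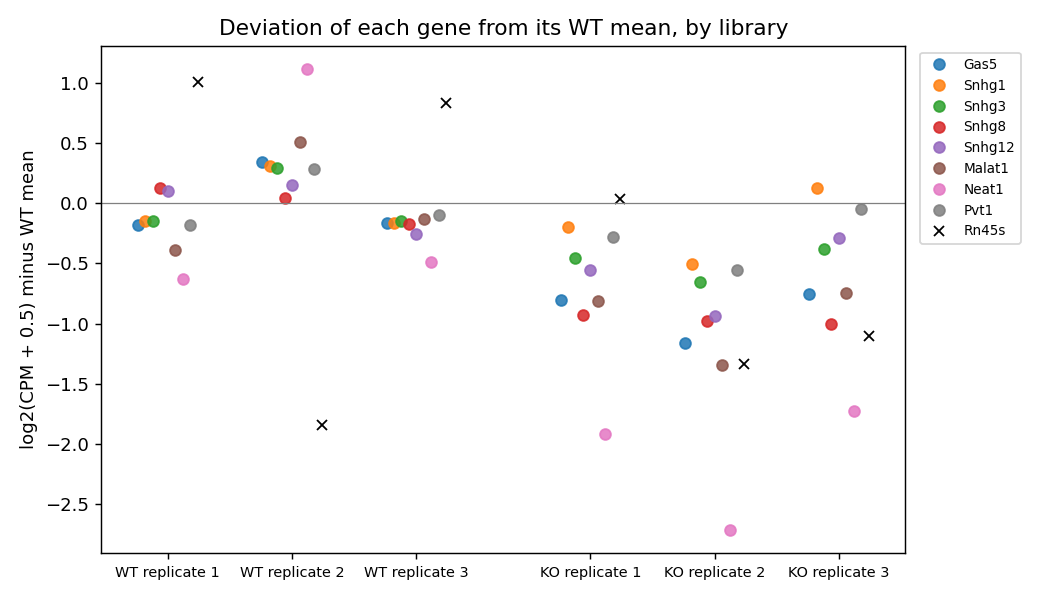
Log2(CPM + 0.5) of the 8 tested genes (coloured dots) and of the ribosomal RNA precursor Rn45s (crosses) in each library, minus the mean of the WT libraries. In WT replicate 2 the dots of 7 genes are the highest of the WT libraries, most of all for Neat1, while Rn45s is at its lowest. In KO replicate 2 both Neat1 and Rn45s are at their lowest KO value, with Rn45s in KO replicate 3 close to it.

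Levels of different genes can be compared only per length of transcript. Divided by the length of the longest annotated transcript without a retained intron, the WT levels ran from Gas5 at 293 ± 63.6 CPM per kb through Malat1 at 109 ± 36.6, Snhg1 at 70.1 ± 13.9, Snhg8 at 37.6 ± 4.03, Snhg3 at 32.6 ± 6.13, Snhg12 at 7.96 ± 1.23 and Neat1 at 6.51 ± 4.79 to Pvt1 at 2.72 ± 0.513 CPM per kb. In this order Malat1 and Snhg1 overlapped over their libraries, as did Snhg8 with Snhg3, Snhg12 with Neat1, and no other neighbours in the order. By these lengths Gas5 had the highest level of these genes in the poly(A) libraries, although Malat1 took the most reads. RNA without a poly(A) tail is undercounted in such libraries by an amount not measured here, so this is not an order of total RNA. In KO, Gas5 remained first at 155 ± 23.0 CPM per kb. It was followed by Snhg1 at 61.6 ± 13.7 and Malat1 at 54.8 ± 11.6, which overlapped, by Snhg3 at 22.6 ± 2.28 and Snhg8 at 18.7 ± 0.489, by Snhg12 at 5.21 ± 1.22 and Pvt1 at 2.19 ± 0.407, and last by Neat1 at 1.31 ± 0.434 CPM per kb. These levels and their order depended on the transcript chosen. The longest transcript with retained introns allowed is 2556 bases for Gas5, against 665 used, and 2728 for Snhg1, against 709 used. The order by those lengths was not computed. Per length of its 3004-base form Neat1 was at 45.0 ± 33.1 CPM per kb in WT and 9.04 ± 3.00 CPM per kb in KO.

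Other host genes were described with the same fit. For this and the lists that follow, limma called 16.9% of all tested genes lower and 13.5% higher. Among 16 further non-coding snoRNA hosts, 11 were tested, 3 were called lower and none higher, with a median log2 fold change of -0.51. At an unadjusted p under 0.05 limma gave 6 lower and none higher, edgeR called 3 lower and DESeq2 5 lower, and neither called one higher. Snhg20 fell from 12.5 ± 4.94 to 5.83 ± 1.77 CPM (log2 fold change -1.01 ± 0.28, limma adjusted p = 0.0282), a call that ended without KO replicate 1 or KO replicate 2. Epb41l4aos fell from 11.4 ± 1.07 to 7.52 ± 1.00 CPM (-0.58 ± 0.12). Zfas1, which lies antisense to the start of Znfx1, fell from 34.3 ± 4.45 to 23.1 ± 1.28 CPM (-0.55 ± 0.10). Without both libraries numbered 2, the 11 hosts again gave 3 calls lower, and their median was -0.14. Snhg14, the long host in the Prader-Willi region, had 52.8 ± 21.7 CPM in WT and 61.5 ± 8.82 in KO and was not called.

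Protein-coding genes that host snoRNAs were counted in the same way, and their difference from the non-coding hosts was not tested. Of 20 tested, outside the ribosomal proteins, 2 were called lower and none higher, and the median log2 fold change was -0.03. At an unadjusted p under 0.05 limma gave 3 lower and 1 higher, edgeR called 2 lower and none higher, and DESeq2 3 lower and 1 higher. Rack1, a ribosome-bound scaffold protein, fell from 2959 ± 277 to 2046 ± 234 CPM (log2 fold change -0.53 ± 0.11). Eef1b2, a subunit of the elongation factor complex, fell from 1410.4 ± 38.3 to 1091 ± 90.9 CPM (-0.37 ± 0.08).

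Few of the protein factors that act on these RNAs were called. Of 18 tested factors of nonsense-mediated decay, 1 was called higher and none lower, with a median log2 fold change of -0.01. At an unadjusted p under 0.05 limma gave 3 higher and 1 lower, and edgeR called 2 higher and DESeq2 3 higher, with none lower by either. The 1 gene was Upf2, which bridges UPF1 to the exon junction complex. It was at 63.2, 81.3 and 70.2 CPM in WT and at 96.6, 80.4 and 106 CPM in KO, so the groups overlapped (log2 fold change 0.40 ± 0.12, limma adjusted p = 0.0458). That call ended when WT replicate 1, WT replicate 3, KO replicate 1 or KO replicate 3 was left out, and also with no filter on low values (0.0657) or no mean-variance trend (0.0563), in a range over its alternatives of 0.00143 to 0.144.

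Of 16 tested proteins that form or assemble snoRNA particles, limma called none, with 2 higher and 1 lower at an unadjusted p under 0.05, and the median log2 fold change was 0.03. By edgeR 1 was called higher, by DESeq2 2 were, and none was called lower by either. Nop58, a core protein of box C/D particles, had 404 ± 31.7 CPM in WT and 447 ± 28.6 in KO.

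Paraspeckle proteins, the partners of Neat1, were read beside it. Of 12 tested, 1 was called lower and none higher, with a median log2 fold change of 0.02. At an unadjusted p under 0.05 limma gave 2 lower, edgeR and DESeq2 each called 2 lower, and none was higher by any of the 3. Sfpq and Nono, which bind Neat1 and are named here after their values were seen, were not called: Sfpq was at 562 ± 65.2 and 584 ± 26.0 CPM and Nono at 367 ± 8.27 and 378 ± 10.8 CPM in WT and KO. Hnrnph3 was the gene called. Its levels were 4.52, 10.9 and 5.41 CPM in WT and 2.87, 2.16 and 3.35 CPM in KO, again highest in WT replicate 2 and lowest in KO replicate 2 (log2 fold change -1.10 ± 0.29, limma adjusted p = 0.0244). The call ended without KO replicate 1 or KO replicate 2.

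Among 14 tested speckle proteins and factors that process the end of Malat1, 1 was called higher and none lower, and the median log2 fold change was 0.02. Neither limma at an unadjusted p under 0.05 nor edgeR or DESeq2 found one lower. Mettl16, an RNA methyltransferase that binds the triple helix at the end of Malat1, rose from 44.7 ± 1.27 to 59.9 ± 1.86 CPM (log2 fold change 0.42 ± 0.06, limma adjusted p = 0.00192), and it was called under all 19 alternatives.

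**Figure D4:**
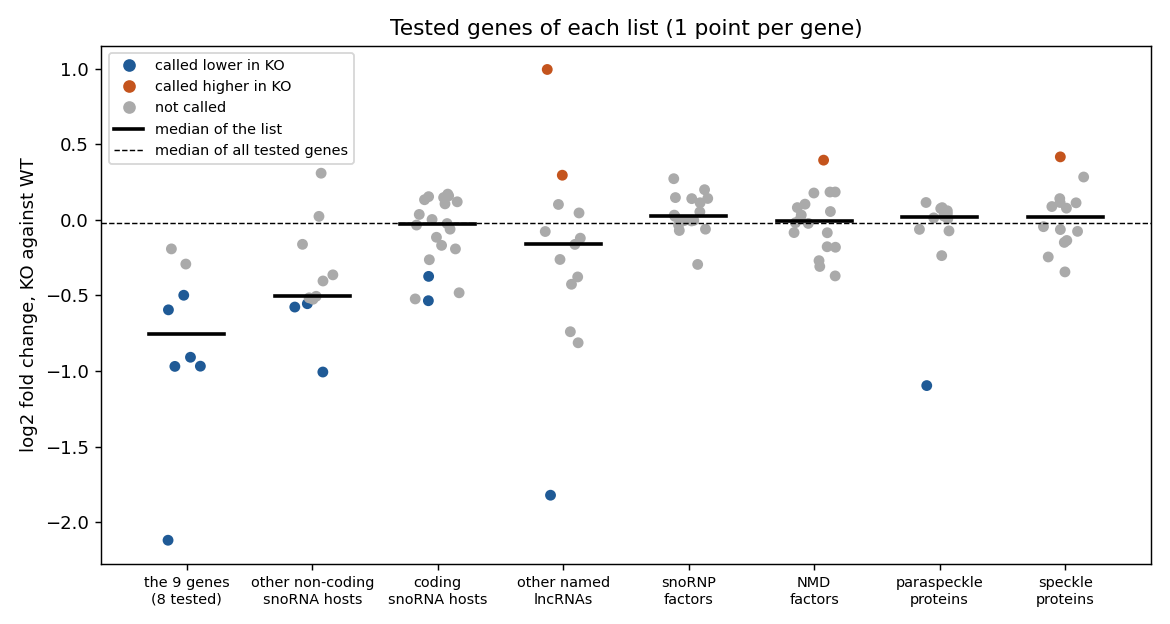
Log2 fold change, KO against WT, of the tested genes of 8 lists, 1 point per gene, with the list's median as a bar and the median of all tested genes as a dashed line. Blue points were called lower in KO, orange points higher and grey points not called. The medians of the 9 genes (-0.75) and of the other non-coding snoRNA hosts (-0.51) lie below the dashed line, and those of the protein factors lie near it.

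Other lncRNAs did not all move one way. Of 13 tested in a list of 22 drawn up as named lncRNAs, 1 was called lower and 2 higher, and 9 had a fold change below 0. The median log2 fold change was -0.16, and 0.16 without both libraries numbered 2. At an unadjusted p under 0.05 limma gave 3 lower and 2 higher. By edgeR 1 was called lower and 2 higher, and by DESeq2 3 lower and 2 higher. These counts include Ptprv (-0.74), which is named as a receptor tyrosine phosphatase gene. Firre, an X-linked nuclear RNA, had a pattern close to that of Neat1, at 15.8, 47.5 and 20.7 CPM in WT and 7.17, 4.35 and 9.59 CPM in KO. The groups did not overlap and WT replicate 2 stood far above the rest (log2 fold change -1.82 ± 0.41, limma adjusted p = 0.0118). Without both libraries numbered 2 Firre was 2.18-fold lower in KO. Trp53cor1, also known as lincRNA-p21 and a target of p53, rose from 1.40 ± 0.205 to 3.30 ± 0.540 CPM (1.00 ± 0.14, limma adjusted p = 0.00143). The lncRNA 2900097C17Rik rose from 176 ± 15.6 to 217 ± 17.5 CPM (0.30 ± 0.09). That call ended when any library other than WT replicate 2 was left out. It also ended with no filter on low values, quantile normalization or no mean-variance trend.

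Gas5 is known as a decoy for the glucocorticoid receptor, so 7 genes of the receptor and its targets were read beside it. Fkbp5, a chaperone of the receptor and its classic target, rose from 77.0 ± 3.39 to 245 ± 9.85 CPM (log2 fold change 1.66 ± 0.06, limma adjusted p = 1.78e-06). Sgk1, a kinase induced by glucocorticoid, rose from 3.61 ± 0.209 to 9.35 ± 0.578 CPM (1.26 ± 0.09). Dusp1, a phosphatase of MAP kinases, fell from 24.0 ± 9.47 to 10.5 ± 1.51 CPM (-1.08 ± 0.29), a call that ended without WT replicate 3, KO replicate 1 or KO replicate 3. With 2 higher, 1 lower and 4 not called, the median over the 7 was -0.03. A link between Gas5 and these 7 genes was not tested. Of the 8 macrophage markers, 2 were called higher (Lyz2, lysozyme, 0.80 ± 0.09, and Spi1, the transcription factor PU.1, 0.39 ± 0.09) and 1 lower (Adgre1, the F4/80 antigen, -0.50 ± 0.08), with a median of -0.01. The call of Spi1 ended with quantile normalization and without both libraries numbered 2. Whether these markers and the 9 genes are linked was not tested.

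Genes near the 9 were called in both directions. Within 100 kb the table held 49 other genes, of which 31 were tested, 3 were called higher and 3 lower, and the median log2 fold change was -0.02. Slc3a2, an amino acid transporter subunit, starts 0.106 kb from Snhg1 on the opposite strand and rose from 251 ± 18.6 to 294 ± 8.98 CPM (0.23 ± 0.07, limma adjusted p = 0.0396). Trnau1ap, 0.739 kb beyond Snhg12, fell from 19.9 ± 1.51 to 16.2 ± 0.689 CPM (-0.29 ± 0.08, limma adjusted p = 0.0344). Near Snhg1, Stx5a and Nxf1 fell (-0.41 and -0.38) and Tmem223 rose (0.32), and near Snhg12 Ythdf2 rose (0.20). Of 19 alternatives, 8 called Slc3a2, 8 Trnau1ap, 10 Ythdf2, 14 Nxf1 and 18 Stx5a, and 10 of the 18 that tested it called Tmem223. The calls of Slc3a2 and Trnau1ap ended when any single library was left out, except WT replicate 1 for Slc3a2 and WT replicate 2 for Trnau1ap. Those of Tmem223 and Ythdf2 ended without WT replicate 2, WT replicate 3 or any KO library, and that of Nxf1 without WT replicate 2, KO replicate 1 or KO replicate 2. All 6 ended without both libraries numbered 2. Among changes of processing, no filter on low values ended those of Slc3a2, Trnau1ap and Tmem223, quantile normalization those of Slc3a2, Trnau1ap and Ythdf2, leaving out the mean-variance trend those of Slc3a2 and Ythdf2, rescaling without Rn45s that of Slc3a2, and TMM factors or edgeR that of Trnau1ap. The neighbours of Snhg8 were too low to be tested, and in both every KO library lay below every WT library. Ndst3, a heparan sulfate enzyme, had 0.396, 0.579 and 0.394 CPM in WT and 0, 0.0335 and 0.0600 CPM in KO, and the protease gene Prss12 had 0.178, 0.193 and 0.223 CPM in WT and 0.128, 0.117 and 0.165 CPM in KO. These rest on at most 39 reads in a library.

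The genes with the most similar pattern over the 6 libraries were found among genes of at least 10 CPM by the root mean square difference of log2 levels, each centred on its own mean. This measure follows genotype and the libraries numbered 2 together and is a description. Nearest to Gas5 were Nol4l (0.0766) and Cdkn1b (0.0924), the gene of the cell cycle inhibitor p27. Cdkn1b (0.0989) and Alpk1 (0.0977) were also nearest to Malat1, and Cdkn1b was at 55.2, 91.9 and 68.3 CPM in WT and 41.0, 30.7 and 39.4 CPM in KO. Nearest to Neat1 were Firre (0.203) and B230312C02Rik (0.304), both farther off than the nearest genes of any other member of the set. Snhg8 was matched by Mical1 (0.0718) and Asb10 (0.0755). Snhg1 was nearest to Ercc6 (0.0262) and another snoRNA host, Snhg17 (0.0437), and Pvt1 to Tnrc6a (0.0191) and Aasdh (0.0366). Snhg3 was nearest to 1700086O06Rik (0.0328) and Cyp4f13 (0.0337), and Snhg12 to Unk (0.0871) and Golga4 (0.114).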

How the data were processed

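RNA of 6 RAW 264.7 plates (3 WT, 3 KO) was sequenced as 125-nucleotide paired-end reads from poly(A) libraries, per the labels' protocols. The submitters' processing notes name STAR 2.6.0a, SAMtools, Picard, FastQC and Trim Galore, and the build mm10. Duplicates were removed, per the file headers, which can lower the values of abundant short transcripts more than others. The program that counted the reads, its annotation and its strand setting were not given in the sources used here. A table of CPM was deposited by the authors for 24848 symbols, of which 7683 are at 0 in every library.

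CPM values were whole multiples of 1 read in 100% of values (tolerance 0.01), so reads were recovered: 50493447, 67392191 and 58408190 in WT and 70411383, 59768682 and 66647726 in KO. A count of 0 allows up to 3 reads, or 0.0426 to 0.0594 CPM. This covers counting error only, since reads carried no molecular identifiers.

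Filtering kept genes that reached 1 CPM in 3 or more libraries. Their log2(CPM + 0.5) values were compared by limma 3.58.1, run in R 4.3.3 (two-sided, mean-variance trend, no covariates, Benjamini-Hochberg adjustment over all tested genes, called under 0.05). On recovered reads edgeR 4.0.16 called 3359 genes and DESeq2 1.42.0 called 3758. The limma fit was tried on simulated counts with the same dispersion for every gene and no shift shared within a library. That trial does not cover shifts such as those of the libraries numbered 2. Alternatives were other pseudocounts (0.1 and 1), filters (none, 5 CPM), scalings, a replicate block, and leaving out each library. Leaving out both replicates 2 and removing a length and GC trend were added after the data were seen.

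The 9 genes and the lists were chosen with earlier results of these data known. Named besides the 9 were up to 3 called genes of each list by absolute fold change, or the most abundant where none was called, called neighbours within 100 kb, and the 2 genes nearest in pattern. After their values were seen, Snhg14, Sfpq, Nono, Rcc1, Zbtb37, Myc, Ndst3, Prss12 and the housekeeping genes at 0 were named too. Coordinates, lengths and snoRNAs come from GENCODE M21, and start sites from RefSeq on GRCm38.p6.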

Additional observations from a re-analysis of the deposited data

How the results depend on the processing

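Of the 19 alternatives, 11 to 19 called each of the 6 genes that fell, and none called Snhg1 or Pvt1. Leaving out each library in turn gave 1918 to 3527 called genes (913 to 1643 higher, 1005 to 1884 lower) against 3230 with all 6, and 3 to 6 of the 8 tested genes, with 3 without KO replicate 1 or KO replicate 2. With the replicate number as a block 2009 genes were called, 891 higher and 1118 lower, and 4 of the 8, with Snhg3 (limma adjusted p = 0.0641) and Snhg12 (0.0688) past the threshold no longer. Same-numbered libraries deviated from their group means with correlations of -0.25, -0.64 and -0.17 across genes, and 0 of 3 WT libraries correlated best with their own number, so the numbers are not shown to pair the samples. Removing a length and GC trend gave 5077 calls, 2948 of them higher. Without both replicates 2 the sign turned for Snhg1 (0.12), Zbtb37 (0.18), Ercc6 (0.0863) and Snhg17 (0.17). It also turned with single libraries left out for Zbtb37 (-0.38 to 0.0845) and Snhg17 (-0.35 to 0.00814), and none of these was called. Where a group is left with few libraries its spread is pooled with the other. The cause of these changes was not tested. Myc and Kcnq1 are limited by few reads, with at most 25 in a library.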
